A study of Danio rerio with 16 samples.

Results

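Oxidative phosphorylation is the stage of respiration in which mitochondria turn the energy of nutrients into ATP. Complex I takes electrons from NADH and complex II from succinate, complex III passes them on through cytochrome c, and complex IV hands them to oxygen. Complexes I, III and IV pump protons across the inner mitochondrial membrane, and complex V, the ATP synthase, makes ATP as the protons flow back. Most subunits are encoded in the nucleus, and an egg supplies the early embryo with their transcripts and with mitochondria before the embryo's own genome is switched on. The genes described here are the 70 whose symbol in the array's probe annotation starts with nduf, uqcr, atp5, sdh followed by a, b, c or d, or cox followed by 4 to 8, out of 9238 distinct symbols. The rule takes nuclear genes only and uses no measured value. Where several probes carry a gene's symbol, the brightest on average stands for it. By complex, 24 genes belong to complex I, 3 to complex II, 5 to complex III, 16 to complex IV and 16 to complex V, and the other 6 are assembly factors or an inhibitor. The genes ndufa4a and ndufa4b are counted with complex IV, where their human counterpart was found to reside.

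RNA came from whole zebrafish embryos, 60 to 100 pooled per sample, and was read on Agilent arrays with 1 sample in each dye channel. The 16 samples formed 5 groups. MZ_Pou5f1 (3 samples) were MZ embryos given 100 pg of Pou5f1 mRNA by injection, and MZ_Sox2 (4 samples) were MZ embryos given 50 pg of Sox2 mRNA. MZ (3 samples) were uninjected embryos with the m793 allele of spg, the gene of the zebrafish Pou5f1 factor, named MZ mutant in the labels, a term zebrafish work uses for loss of the maternal and the zygotic gene product together. WT_Sox2 (3 samples) were wild-type embryos given 50 pg of Sox2 mRNA, and WT (3 samples) were uninjected wild-type embryos. No group was given a control mRNA, so between injected and uninjected embryos the injection and the mRNA cannot be told apart. All groups, the controls included, were kept in the protein synthesis inhibitor cycloheximide at 15 µg/ml starting 1.5 hours post fertilization (hpf), and were frozen at 4.7 hpf. No group without the inhibitor was analysed here, so each difference is one between embryos whose protein synthesis was inhibited from 1.5 hpf on. In pooled whole embryos, fewer cells of a type and less RNA per cell cannot be told apart.

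The samples did not order by their labels. Over the 70 genes, 8 of 16 samples had their nearest sample, by the median absolute log2 difference, inside their own group, and the same count of 8 held over the brightest 25% of all probes. A dark control feature, which carries no probe, had an intensity of 132.7 in MZ 1, 12.57 in MZ 2 and 52.76 in WT 3, and between 6.85 and 9.87 in the other samples. A second negative control feature had 13.48 in MZ 1, 6.97 in MZ 2 and 22.70 in WT 3. It lay between 6.68 and 9.81 in the other samples, so on it MZ 2 was not raised. On the log2 scale the probe for pou5f3, the zebrafish Pou5f1 gene, averaged 14.27 ± 0.59 (SD, n = 3) in MZ_Pou5f1, against 15.25 ± 0.63 (SD, n = 3) in MZ. The sox2 probe averaged 6.42 ± 1.06 (SD, n = 4) in MZ_Sox2 and 8.22 ± 0.81 (SD, n = 3) in MZ, and 4.65 ± 0.52 (SD, n = 3) in WT_Sox2, against 7.33 ± 0.84 (SD, n = 3) in WT. Neither probe was higher in the samples labelled as injected with its gene, and the labels do not say whether they lie in the injected mRNAs or beside the allele's change, so neither checks the labels. Of markers listed to check the label whole embryo, 3 of 5 early embryo genes, 7 of 7 germ plasm genes and 5 of 8 enveloping layer genes were above background in all 16 samples, as were 2 of 6 yolk syncytial layer and 3 of 5 oocyte and follicle genes, against 1 of 8 muscle, 0 of 5 erythrocyte and 0 of 6 liver genes. Only 3 muscle, 3 erythrocyte and 3 liver genes were above it in fewer than 4 samples, so these low counts do not show absence. The summed intensity of the 8 muscle genes ranged from 664.9 to 7257 in MZ and from 299.1 to 1509 over the other groups. The summed intensity of the 8 enveloping layer genes ranged from 975.1 to 1892 in MZ_Pou5f1, 1062 to 42720 in MZ_Sox2, 1553 to 16640 in MZ, 1283 to 2649 in WT_Sox2 and 1083 to 9207 in WT, and that of the 6 yolk syncytial layer genes from 1694 to 4360 in MZ_Pou5f1, 2643 to 24150 in MZ_Sox2, 4779 to 16870 in MZ, 3108 to 5843 in WT_Sox2 and 3778 to 16710 in WT. Their part in the results was not tested. Every group below is a set of samples that carries that label.

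Signal for all 5 complexes was found in every group. A probe was called above background in a sample when it lay more than 1 log2 unit over the higher of 2 negative control features of that sample. In MZ 1, MZ 2 and WT 3 the higher one was the dark feature, so calls in these samples rest on it. Against the second feature alone, dim genes of these samples would be called more often. By this measure 56 of the 70 genes were above background in all 16 samples: 21 of 24 in complex I, 1 of 3 in complex II, 5 of 5 in complex III, 10 of 16 in complex IV, 15 of 16 in complex V and 4 of 6 assembly factors and inhibitor. The brightest 25% of all probes, with a mean log2 intensity of at least 9.83, held 49 of the 70, while the median over all probes was 5.65. Probes bind their targets with unequal strength, so levels are compared between samples for the same probe and not between genes.

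In complex I the mean log2 intensity of a gene ran from 3.58 for ndufa12, an accessory subunit, to 13.76 for ndufs1, the large iron-sulfur subunit of the arm that receives electrons from NADH. The flavin-binding subunit ndufv1, which oxidises NADH, averaged 12.78, ndufs3 of the arm that reduces quinone 12.92, and ndufv2, an iron-sulfur partner of ndufv1, 9.44. In complex II the flavin-binding subunit sdha averaged 12.99, and the membrane anchors sdhc and sdhda were above background in 14 and 12 of 16 samples. All 5 genes of complex III were bright, from 11.56 for the small subunit uqcrq to 15.10 for uqcrfs1, the Rieske iron-sulfur protein. The core proteins uqcrc2a and uqcrc2b averaged 11.84 and 13.54. In complex IV the range was 3.13 for cox7a1 to 13.76 for cox5ba, a nuclear subunit that surrounds the catalytic core, and cox5aa, another such subunit, averaged 13.67. In complex V it was 7.71 for atp5pf, of the stalk that holds the catalytic head, to 15.27 for atp5fa1, the alpha subunit of that head. The gamma subunit atp5f1c of the rotating stalk averaged 14.60, and atp5mc1, atp5mc3a and atp5mc3b, which encode the c subunit of the membrane rotor, 14.58, 14.18 and 12.97. Among the others, the range was 4.63 for sdhaf3, an assembly factor of complex II, to 10.40 for atp5if1b, an inhibitor of the ATP synthase.

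**Figure D1:**
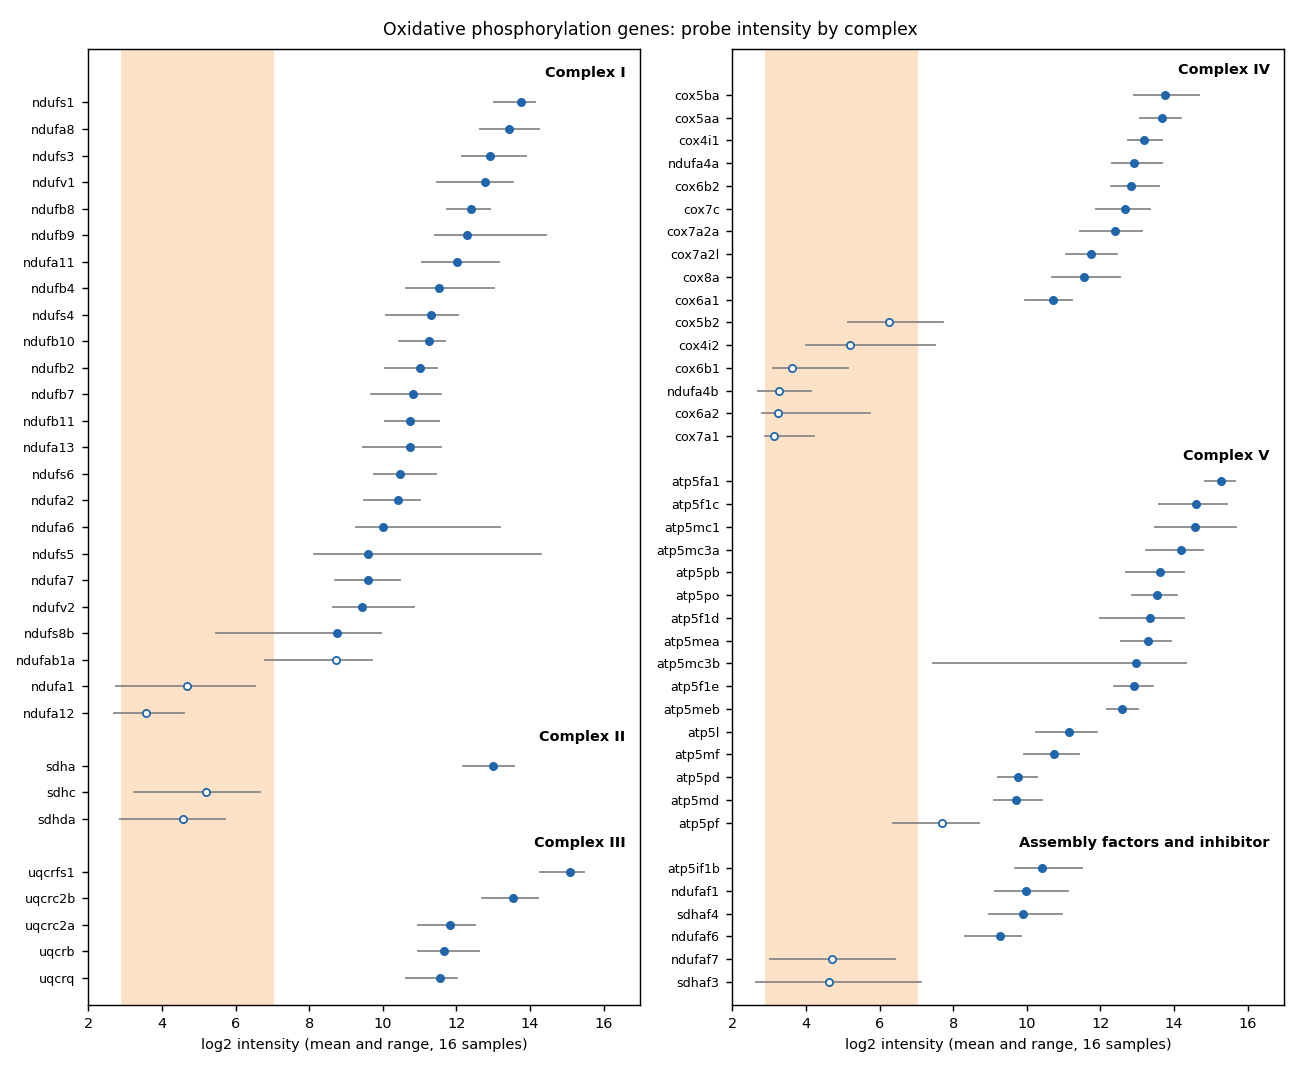
Mean log2 probe intensity of each of the 70 genes over the 16 samples (points), with the lowest and highest sample (lines), grouped by complex. Filled points mark genes above background in all 16 samples, open points the other 14, and the shaded band spans the higher negative control feature over the samples. All 5 complex III genes lie far right of the band, and complex IV holds the most genes inside it.

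Several subunits of complex IV come as isoforms that vertebrates use in different tissues, and here 1 partner of each pair was far above background. The other was at or near it, except cox4i2, which was dim but above it in most samples. Partners were read on different probes, so a weakly binding probe and a rare transcript were not told apart. On its brightest probe the widely used isoform cox4i1 was among the steadiest genes, with a mean log2 intensity of 13.19 and a range of 12.74 to 13.68. A second bright probe was less steady, with an SD of 0.53 and a Pearson correlation of 0.37 with the first. In MZ against WT it gave a log2 difference of 1.12, where the first gave 0.28, so the steadiness depends on the probe. The partner gene cox4i2, linked in mammals to lung and to low oxygen, was low, from 3.99 in MZ_Sox2 2 to 7.51 in MZ 1, and above background in 14 of 16 samples. The MZ 1 value is that of the sample with the highest control feature, and there cox4i2 was not above background. Further, dimmer probes of cox4i2 were above background in 10 and 1 of 16 samples. For subunit 6a, cox6a1 ranged from 9.96 to 11.22, whereas cox6a2, the heart and muscle isoform of mammals, was above background in 0 of 16 samples. For subunit 7a, cox7a2a ranged from 11.45 to 13.12 and cox7a1, the muscle isoform of mammals, was above background in 0 of 16 samples. For subunit 6b, the gene named cox6b2 was bright, from 12.28 to 13.60, and cox6b1 was above background in 1 of 16 samples on its brightest probe and in 2 or 3 of 16 on its other 3 probes. In mammals it is cox6b1 that most tissues use and cox6b2 that is testis-specific, so the zebrafish genes of these names were detected the other way round. The gene ndufa4a ranged from 12.31 to 13.67 and ndufa4b was above background in 1 of 16 samples. The genes cox7a2l, whose mammalian product joins complexes III and IV, and cox8a, a small membrane subunit, were bright, at 11.75 and 11.55 on average. The subunit gene cox5b2, a relative of cox5ba, was dim, from 5.15 to 7.73, and above background in 15 of 16 samples. Across the 12 isoform genes measured, limma called 0 in each of the 7 comparisons, beside at most 0.0977% of all probes.

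**Figure D2:**
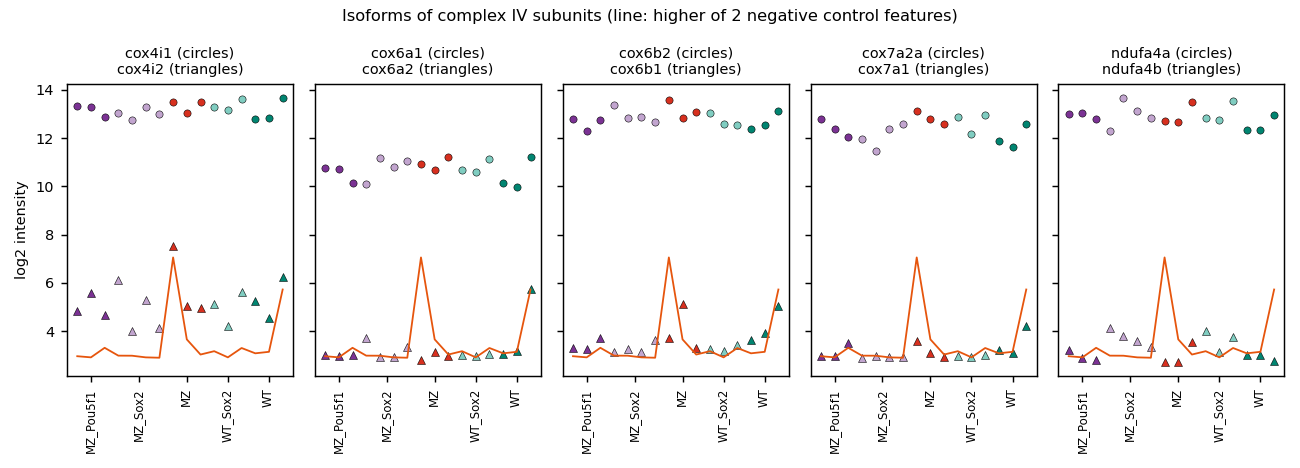
Log2 intensity of 5 isoform pairs of complex IV subunits in the 16 samples, in the order MZ_Pou5f1, MZ_Sox2, MZ, WT_Sox2 and WT, with circles for the bright and triangles for the dim partner. The line is the higher of 2 negative control features in each sample. The triangles of cox6a2, cox6b1, cox7a1 and ndufa4b lie along the line, and those of cox4i2 mostly a little above it.

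The genes differed widely in how steady they were over the 16 samples. The smallest SD on the log2 scale was 0.22 for atp5meb, subunit e of the ATP synthase, which ranged from 12.19 to 13.03. It was followed by atp5fa1 with an SD of 0.27, ndufb8 of the membrane arm of complex I with 0.29, and atp5f1e, the epsilon subunit of the ATP synthase, with 0.29. Next came the brightest probe of cox4i1 with 0.30, whereas a second bright probe of cox4i1 had 0.53. The largest SD was that of atp5mc3b at 1.64, and it rested on MZ 2 with 7.45 and MZ 1 with 11.67, while the other samples lay between 12.03 and 14.33. The accessory subunit ndufs5 (SD 1.35) was at 14.30 in MZ 1 and at or below 10.35 in the other samples. The iron-sulfur subunit ndufs8b (SD 1.08) was at 5.46 in MZ_Pou5f1 1 and at or above 7.97 in the others. In ndufs5 and ndufs8b a single sample stood far from the rest, and in atp5mc3b 2 samples lay below all others. The assembly factor sdhaf3 (SD 1.49) and the small membrane subunit ndufa1 (SD 1.19) varied near background, above it in 9 and 10 of 16 samples. The accessory subunit ndufa6, which the rule for named genes did not take and which was chosen after its values were seen, stood at 13.18 in WT 3, its highest sample by a wide margin, and at 9.27 in WT 1, its lowest.

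Seen sample by sample, complexes I, IV and V were low in WT 1 and WT 2, and complexes II and III were not. Relative to each gene's mean over the 16 samples, the median deviation in WT 1 and WT 2 was -0.48 and -0.63 for complex I, -0.27 and -0.42 for complex IV and -0.32 in both for complex V, but 0.22 and 0.05 for complex II. For complex III it was 0.008 and -0.02. Cytosolic ribosomal protein genes were low in the same samples, at -0.55 and -0.40, and mitochondrial ones at -0.35 and -0.39. The median of the 70 genes was lowest in WT 1 and WT 2, at a log2 intensity of 10.61 and 10.65, and stood at 11.48 in WT 3. In MZ_Pou5f1 it was 11.56, 11.23 and 10.67 for replicates 1 to 3, in MZ_Sox2 10.87, 11.05, 11.27 and 11.60 for replicates 1 to 4, in MZ 11.49, 11.16 and 11.43, and in WT_Sox2 11.62, 11.58 and 11.57. The WT samples therefore span most of the range of all groups. The median deviation of complex I was 0.57, 0.41 and 0.09 in the MZ samples, against -0.48, -0.63 and 0.49 in the WT samples. For complex II it was -1.70, -0.56 and 0.17 in MZ, against 0.22, 0.05 and -0.62 in WT. Complex I was thus highest in MZ 1, MZ 2 and WT 3, the samples with the highest dark control feature, and complex II was low in the same 3 and, at -0.63, in MZ_Sox2 2. Of the complex II genes, sdhc and sdhda were near background, and the part of the control signal in these shifts was not tested. MZ 1, MZ 2 and WT 3 also lay on the same slide, D, which held WT 2 besides, and MZ 2 and WT 3 shared an array. The part of the slide was not tested. The median deviation of 39 early zygotic genes, such as klf17 and vox, was highest in the same samples, at 2.35 in MZ 1, 2.38 in MZ 2 and 2.03 in WT 3, against -2.36 to 1.26 in the other 13, and its part was not tested either.

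**Figure D3:**
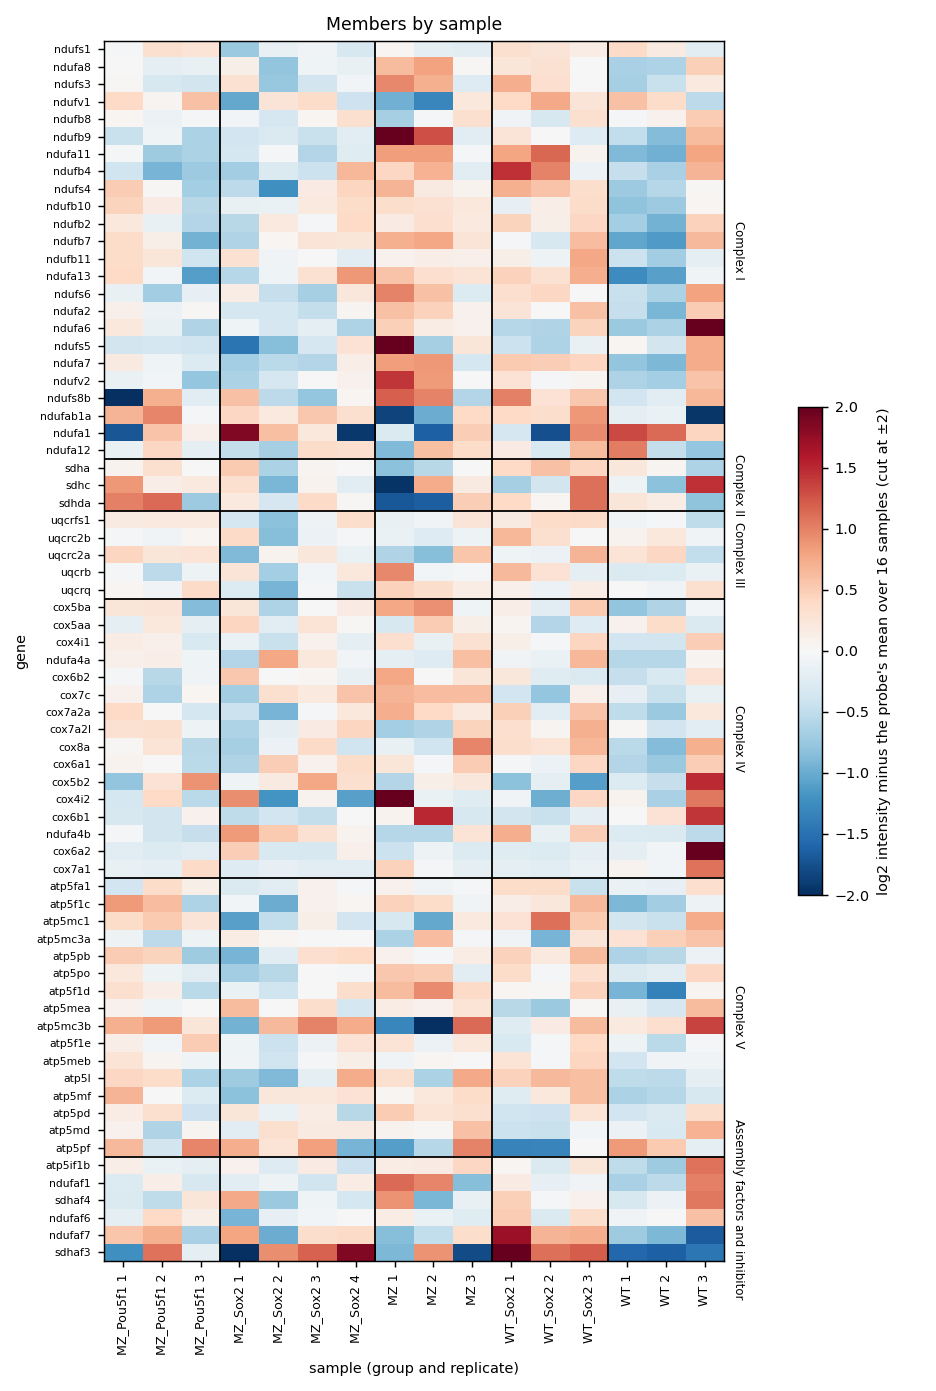
Log2 intensity of each of the 70 genes in each of the 16 samples minus that gene's mean over the samples, with colours cut at 2 in both directions, genes grouped by complex and samples by group. WT 1 and WT 2 are blue for most genes of complexes I, IV and V, WT 3 is red for most of them, and MZ 1 and MZ 2 are red in complex I and blue for sdha and sdhda of complex II.

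**Figure D4:**
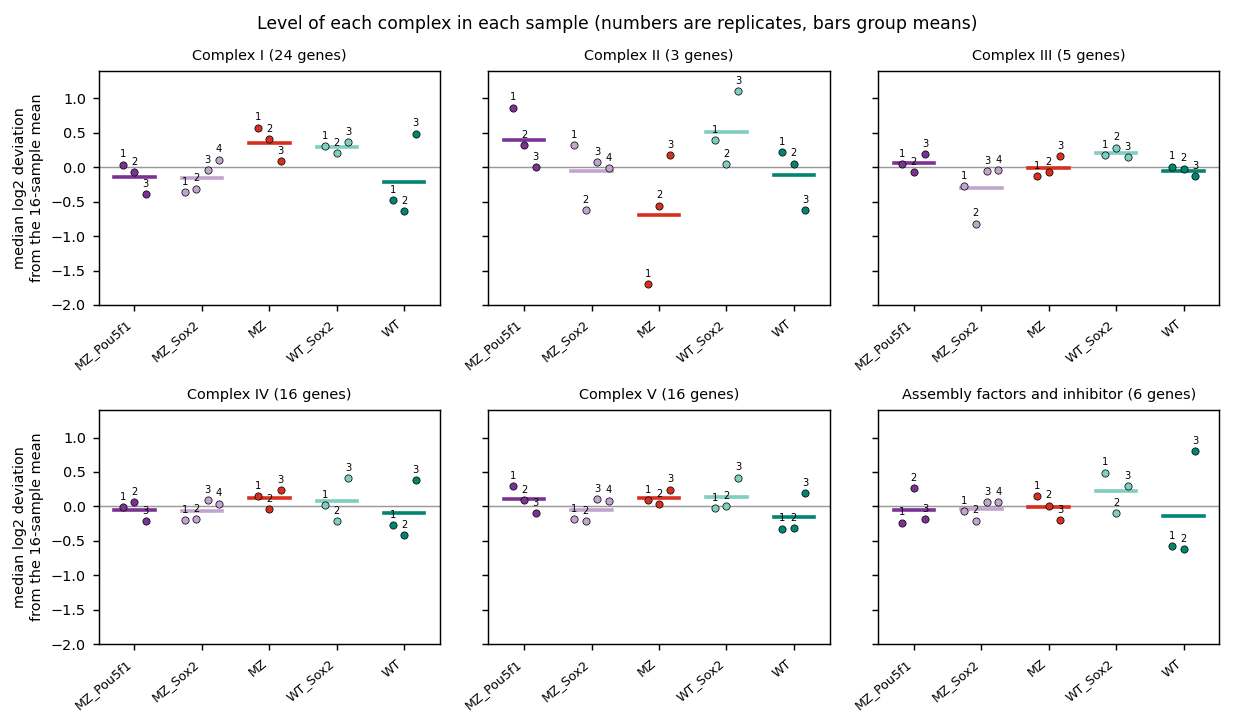
Median log2 deviation of the genes of each complex in each sample, with replicate numbers beside the points and bars at the group means. In complex I the MZ and WT_Sox2 samples lie above 0 and WT spans -0.63 to 0.49, and in complex II MZ 1 lies lowest at -1.70.

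MZ embryos were compared with WT embryos for what the loss of Pou5f1 changes under cycloheximide. No gene of oxidative phosphorylation passed the test. The log2 difference was positive for 49 of 70 genes and negative for 21, with a median of 0.30, beside -0.04 over all probes. Complex I had 19 of 24 positive differences and a median of 0.66, complex IV 11 of 16 and 0.28, and complex V 12 of 16 and 0.23. Complex III had 3 of 5 and a median of 0.18, and complex II 0 of 3 and -0.62. The complex II median was that of sdhc, above background in 14 of 16 samples, while sdha, above it in all 16, gave -0.36. At an adjusted p of 0.05, limma called 0 of 70 genes (0.00465% of all probes), and 9 of 70 had an unadjusted p under 0.05 (12.2% of all probes). The 2 groups did not overlap for 11 of 70 genes, 10 higher and 1 lower (13.2% of all probes). These shares of the 70 lay near those of all probes.

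The gene with the largest moderated statistic was atp5f1d, the delta subunit of the ATP synthase's rotating stalk. Its log2 intensity was 13.97, 14.28 and 13.72 in MZ samples, against 12.41, 11.99 and 13.40 in WT samples. Every MZ value lay above every WT value, and WT 3 came nearest to the MZ samples. The difference was 1.38 (SE 0.37, adjusted p = 0.297, limma). For ndufa13, an accessory subunit of complex I, the values were 11.29, 11.07 and 11.00 in MZ, against 9.47, 9.64 and 10.65 in WT, and limma gave 1.30 (SE 0.43, adjusted p = 0.327). For ndufb10, of the membrane arm, they were 11.60, 11.55 and 11.46 in MZ, against 10.44, 10.52 and 11.29 in WT, and limma gave 0.82 (SE 0.31, adjusted p = 0.358). In all 3 genes the MZ samples were close together and WT 3 stood nearest to them. A second bright probe of ndufb10 gave 0.57. The only gene lower in every MZ sample was uqcrc2b, with 13.41, 13.28 and 13.45 in MZ, against 13.61, 13.76 and 13.48 in WT, and limma gave -0.25 (SE 0.29, adjusted p = 0.721).

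The size of the shift in this comparison depended on which WT sample was used. The mean of MZ minus a single WT sample had a median over the 70 genes of 0.57 for WT 1 and 0.63 for WT 2, with 51 and 54 genes positive, but of -0.05 for WT 3, with 33 positive. In the fit, leaving out WT 2 gave a median of 0.17 and leaving out WT 3 one of 0.57, the lowest and highest with a single sample left out. Within the slides that held both groups, the median was 0.42 on slide C (1 sample per group) and 0.25 on slide D (2 samples per group). These medians have no dye term. On slide D the MZ samples were in Cy5 and the WT samples in Cy3, and on slide C it was the reverse. Group and dye therefore cannot be told apart within either slide. Leaving out WT 2, or MZ 1, made atp5f1d pass (adjusted p = 0.0231 and 0.0253, limma), in fits that called 1431 and 1359 of all probes. With array weights, by which limma weights each sample by its fit (0.0984 for WT 3, 6.22 for WT_Sox2 1), 20 of 70 genes passed, 17 higher and 3 lower, beside 25.2% of all probes.

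MZ_Pou5f1 embryos were compared with MZ embryos for what returning Pou5f1 mRNA changes. No gene passed the test. The log2 difference was positive for 25 of 70 genes and negative for 45, with a median of -0.18, beside 0.06 over all probes. Complex I had 5 of 24 positive differences and a median of -0.47, complex IV 3 of 16 and -0.21, and complex V 8 of 16 and -0.03. Complex II had 3 of 3 positive differences, with a median of 0.74, and complex III 3 of 5, with 0.15. The complex II median was again that of sdhc, near background, and sdha gave 0.58. Limma called 0 of 70 genes at an adjusted p of 0.05 (0% of all probes), and 7 of 70 had an unadjusted p under 0.05 (12.2% of all probes). The groups did not overlap for 11 of 70 genes, 3 higher and 8 lower (17% of all probes).

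The gene ndufv2 had log2 intensities of 9.30, 9.39 and 8.66 in MZ_Pou5f1 samples, against 10.86, 10.28 and 9.42 in MZ samples. The groups nearly met at MZ_Pou5f1 2 and MZ 3, and the difference was -1.07 (SE 0.41, adjusted p = 0.409, limma). For ndufb4, of the membrane arm of complex I, the values were 11.14, 10.62 and 10.82 in MZ_Pou5f1, against 11.95, 12.23 and 11.33 in MZ (difference -0.98, adjusted p = 0.414, limma). For cox7c, a small subunit of complex IV, they were 12.75, 12.04 and 12.69 in MZ_Pou5f1, against 13.34, 13.27 and 13.27 in MZ (difference -0.80, adjusted p = 0.409, limma). The MZ samples of cox7c lay close together, and all MZ_Pou5f1 samples were lower. In the other direction, the rotor gene atp5mc1 had 14.95, 15.11 and 14.84 in MZ_Pou5f1, against 14.26, 13.56 and 14.77 in MZ (difference 0.77, adjusted p = 0.411, limma). A second bright probe of atp5mc1 gave 0.33 and, over the 16 samples, went with the first at a Pearson correlation of 0.23. The complex II gene sdha had 13.05, 13.31 and 12.98 in MZ_Pou5f1, against 12.17, 12.43 and 12.98 in MZ (difference 0.58, adjusted p = 0.434, limma), so that MZ 3 lay just under the lowest MZ_Pou5f1 sample. The difference of uqcrc2b was 0.15 (adjusted p = 0.813, limma).

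On slide C, the only slide with both groups, the median difference of the 70 genes between the 3 MZ_Pou5f1 samples and MZ 3 was -0.17. Without MZ 3, 5 genes passed, beside 958 of all probes: ndufb9, of the membrane arm of complex I, and ndufv2 fell by 2.20 and 1.60 on the log2 scale, and atp5mc3b rose by 3.82 (adjusted p from 0.0336 to 0.0464, limma). The others were sdhda and ndufab1a, the mitochondrial acyl carrier protein, which were not above background in MZ 1 and, for sdhda, in MZ 2 either, so no difference is given for them. In that fit MZ consists of MZ 1 and MZ 2, the samples with a raised dark feature. Without MZ 1 the median difference was -0.043, and without MZ_Pou5f1 1 it was -0.27. With array weights 10 of 70 genes passed, 5 higher and 5 lower, beside 15.8% of all probes.

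MZ_Sox2 embryos were compared with MZ embryos for what Sox2 mRNA changes where Pou5f1 is missing. No gene passed the test. The log2 difference was positive for 21 of 70 genes and negative for 49, with a median of -0.29, beside 0.04 over all probes. Complex I had 4 of 24 positive differences and a median of -0.60, complex IV 5 of 16 and -0.28, complex V 4 of 16 and -0.26, complex III 2 of 5 and -0.27, and complex II 3 of 3 and 0.46. At an adjusted p of 0.05, limma called 0 of 70 genes (0% of all probes), and 4 of 70 had an unadjusted p under 0.05 (4.82% of all probes). The groups did not overlap for 6 of 70 genes, all lower (4.2% of all probes).

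The small complex III subunit uqcrq had log2 intensities of 11.28, 10.63, 11.52 and 11.11 in MZ_Sox2 samples, against 12.01, 11.90 and 11.71 in MZ samples, a difference of -0.67 (SE 0.24, adjusted p = 0.77, limma). All 4 MZ_Sox2 samples were below all 3 MZ samples, and 3 further bright probes of uqcrq gave -0.30, -0.25 and -0.54. For ndufa2, an accessory subunit of the NADH-oxidising arm, the values were 10.06, 10.06, 9.94 and 10.47 in MZ_Sox2, against 11.00, 10.88 and 10.50 in MZ (difference -0.61, adjusted p = 0.77, limma). For atp5f1d they were 13.21, 12.95, 13.34 and 13.69 in MZ_Sox2, against 13.97, 14.28 and 13.72 in MZ (difference -0.68, adjusted p = 0.77, limma). In both genes the groups nearly met, at MZ_Sox2 4 and MZ 3. Over the 70 genes, MZ_Sox2 3 and MZ 3 were each other's nearest sample, with a median absolute difference of 0.18. The 2 groups share no slide, which leaves injection and slide as effects that cannot be told apart, and with slide as a random block the median was -0.31. Without MZ 1 the median was -0.16. With array weights 0 of 70 genes passed, and the median was -0.11.

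WT_Sox2 embryos were compared with WT embryos for what Sox2 mRNA changes where Pou5f1 is present. No gene passed the test. The log2 difference was positive for 50 of 70 genes and negative for 20, with a median of 0.34, beside -0.06 over all probes. Complex I had 20 of 24 positive differences and a median of 0.59, complex V 10 of 16 and 0.25, complex IV 9 of 16 and 0.16, complex III 4 of 5 and 0.26, and complex II 2 of 3 and 0.59. Limma called 0 of 70 genes at an adjusted p of 0.05 (0.0977% of all probes), and 12 of 70 had an unadjusted p under 0.05 (14.5% of all probes). The groups did not overlap for 19 of 70 genes, 15 higher and 4 lower (27.3% of all probes), which is near the share of all probes.

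The assembly factor sdhaf3 had log2 intensities of 7.12, 5.73 and 5.83 in WT_Sox2 samples, against 3.06, 2.99 and 3.19 in WT samples. All 3 WT_Sox2 samples were above background and 0 of 3 WT samples were. With background plus the margin as the floor in each WT sample, the WT_Sox2 mean was at least 2.38-fold that of WT. This bound was not tested, and the adjusted p of 0.152 (limma) is that of the difference without a floor. In WT 3, whose dark feature was raised, the floor lay above WT_Sox2 2 and WT_Sox2 3. The factor ndufaf7, whose human counterpart methylates a core subunit of complex I, had 6.41, 5.38 and 5.43 in WT_Sox2, against 3.99, 3.80 and 3.03 in WT. It too was above background in 3 of 3 WT_Sox2 and 0 of 3 WT samples. With the same floor its WT_Sox2 mean was at least 1.70-fold that of WT. The adjusted p of 0.112 (limma) is again that without a floor, and in WT 3 the floor lay above every WT_Sox2 value. Among the bright genes, ndufa13 had 11.18, 11.03 and 11.45 in WT_Sox2, against 9.47, 9.64 and 10.65 in WT, and limma gave 1.30 (SE 0.43, adjusted p = 0.208). As in MZ against WT, the WT sample nearest to the other group was WT 3. The rotor gene atp5mc3a had 14.10, 13.25 and 14.43 in WT_Sox2, against 14.46, 14.65 and 14.75 in WT, and limma gave -0.69 (SE 0.33, adjusted p = 0.361). A second bright probe of atp5mc3a gave 1.39, the opposite sign, so the direction of this gene depends on the probe. The genes cox6b1 and cox6a2 did not overlap either. Neither passed the margin over background in any of the 6 samples of the 2 groups, so no difference is given.

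The mean of WT_Sox2 minus a single WT sample had a median of 0.50 for WT 1 and 0.60 for WT 2, with 52 and 56 of 70 genes positive, and of -0.17 for WT 3, with 31 positive. Here too the groups lie on separate slides, injection and slide cannot be told apart, and slide as a random block gave a median of 0.39. Without MZ 1, MZ 2 and WT 3, the samples with a raised dark feature, the median was 0.54. Leaving out WT 2 alone gave a median of 0.19, and leaving out WT 3 alone 0.53. With array weights 32 of 70 genes passed, 31 higher and 1 lower, beside 25.6% of all probes.

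MZ_Sox2 embryos were compared with WT_Sox2 embryos for what the loss of Pou5f1 changes when Sox2 mRNA is added. No gene passed the test. The log2 difference was positive for 15 of 70 genes and negative for 55, with a median of -0.29, beside -0.00 over all probes. Complex I had 2 of 24 positive differences and a median of -0.37, complex II 0 of 3 and -0.47, and complex III 0 of 5 and -0.45. The complex II median was that of sdhda, above background in 12 of 16 samples, and sdha gave -0.48. Complex IV had 7 of 16 and a median of -0.04, and complex V 6 of 16 and -0.22. At an adjusted p of 0.05, limma called 0 of 70 genes (0.0186% of all probes), and 6 of 70 had an unadjusted p under 0.05 (7.57% of all probes). The groups did not overlap for 6 of 70 genes, 1 higher and 5 lower (10.3% of all probes).

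The rotor gene atp5mc1 had log2 intensities of 13.49, 14.09, 14.70 and 14.20 in MZ_Sox2 samples, against 14.87, 15.69 and 15.10 in WT_Sox2 samples, a difference of -1.14 (SE 0.33, adjusted p = 0.42, limma). A second bright probe of the gene gave -0.90. The iron-sulfur subunit ndufs1 had 13.02, 13.61, 13.69 and 13.44 in MZ_Sox2, against 14.07, 14.02 and 13.91 in WT_Sox2, a difference of -0.56 (SE 0.22, adjusted p = 0.569, limma). Dimmer probes of ndufs1, above background in 15 and 14 of 16 samples, gave only -0.17 and -0.15. Their Pearson correlations with its brightest probe were 0.07 and 0.22. The membrane-arm subunit ndufa11 had 11.67, 11.99, 11.43 and 11.77 in MZ_Sox2, against 12.80, 13.17 and 12.09 in WT_Sox2 (difference -0.98, adjusted p = 0.625, limma). On the brightest probe of each of the 3 genes, every MZ_Sox2 sample lay under every WT_Sox2 sample. The dim isoform gene cox5b2 went the other way, with 6.16, 6.42, 7.02 and 6.57 in MZ_Sox2, against 5.43, 6.04 and 5.15 in WT_Sox2 (difference 0.96, adjusted p = 0.674, limma). On slide A, the only slide with both groups, the median of MZ_Sox2 1 minus the 3 WT_Sox2 samples was -0.31. Without WT_Sox2 3 the median of the fit was -0.14. With array weights 13 of 70 genes passed, 4 higher and 9 lower, beside 17.3% of all probes.

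MZ_Pou5f1 embryos were compared with WT embryos for how far embryos given Pou5f1 mRNA differ from the wild type. No gene passed the test. The log2 difference was positive for 43 of 70 genes and negative for 27, with a median of 0.10, beside -0.04 over all probes. Complex I had 14 of 24 positive differences and a median of 0.07, complex IV 10 of 16 and 0.06, complex V 11 of 16 and 0.30, complex III 2 of 5 and -0.02, and complex II 3 of 3 and 0.23. Limma called 0 of 70 genes at an adjusted p of 0.05 (0% of all probes), and 3 of 70 had an unadjusted p under 0.05 (7.24% of all probes). The groups did not overlap for 7 of 70 genes, 5 higher and 2 lower (15.5% of all probes).

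The acyl carrier protein gene ndufab1a, which also serves mitochondrial fatty acid synthesis, had log2 intensities of 9.41, 9.72 and 8.70 in MZ_Pou5f1 samples, against 8.55, 8.61 and 6.80 in WT samples, a difference of 1.36 (SE 0.57, adjusted p = 0.674, limma). MZ_Pou5f1 3 lay just above WT 2, and WT 3 was the lowest of all 16 samples. Subunit f of the ATP synthase, atp5mf, had 11.43, 10.75 and 10.47 in MZ_Pou5f1, against 10.12, 10.18 and 10.42 in WT (difference 0.70, adjusted p = 0.69, limma). The rotor gene atp5mc3a had 14.08, 13.65 and 14.08 in MZ_Pou5f1, against 14.46, 14.65 and 14.75 in WT (difference -0.76, adjusted p = 0.682, limma), and its second bright probe gave 1.24, the opposite sign. The factor ndufaf7 was above background in 2 of 3 MZ_Pou5f1 samples and 0 of 3 WT samples. It was at 5.26, 5.42 and 4.06 in MZ_Pou5f1, against 3.99, 3.80 and 3.03 in WT. A floor at background leaves no fold, and without a floor the adjusted p was 0.67 (limma). The mean of MZ_Pou5f1 minus a single WT sample had a median of 0.30 for WT 1, 0.35 for WT 2 and -0.39 for WT 3. On slide C, where the 3 MZ_Pou5f1 samples met WT 1, the median was 0.30. Over the 70 genes MZ_Pou5f1 3 was nearest to WT 1, with a median absolute difference of 0.19. Without WT 2 the median turned to -0.03, and without WT 3 it was 0.31. With slide as a fixed block it was 0.18. With array weights it was 0.38 and 12 of 70 genes passed, all higher, beside 10.3% of all probes.

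The last comparison tests whether Sox2 mRNA acts differently in MZ and in WT embryos, as the difference of MZ_Sox2 minus MZ from WT_Sox2 minus WT. No gene passed the test. The value was positive for 18 of 70 genes and negative for 52, with a median of -0.58, beside 0.05 over all probes. Complex I had 4 of 24 positive values and a median of -1.15, complex III 0 of 5 and -0.63, complex V 5 of 16 and -0.44, complex IV 6 of 16 and -0.37, and complex II 2 of 3 and 0.24. The complex II median was that of sdhda, near background, and sdha gave -0.12. At an adjusted p of 0.05, limma called 0 of 70 genes (0% of all probes), and 17 of 70 had an unadjusted p under 0.05 (9.09% of all probes), 10 of them in complex I. The value is built from the same MZ and WT samples as the comparisons above. Leaving out WT 2 gave a median of -0.43 over the 70 genes, and leaving out WT 3 one of -0.81. With slide as a fixed block the median was -0.70.

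The most negative statistics were those of atp5f1d at -1.60 (SE 0.51, adjusted p = 0.443, limma), ndufa11 at -1.90 (SE 0.64, adjusted p = 0.451, limma) and ndufa13 at -1.69 (SE 0.60, adjusted p = 0.461, limma). For atp5f1d the MZ_Sox2 mean was 0.68 below MZ and the WT_Sox2 mean 0.92 above WT. The most positive were atp5pf at 1.90 (adjusted p = 0.539, limma), atp5mc3a at 0.84 (adjusted p = 0.609, limma) and ndufa1 (adjusted p = 0.638, limma), which was above background in 10 of 16 samples and gets no value. A second bright probe of atp5mc3a gave -0.91, the opposite sign. For atp5pf the log2 intensities were 8.43, 7.98, 8.52 and 6.78 in MZ_Sox2, against 6.61, 7.13 and 8.70 in MZ. They were 6.37, 6.38 and 7.70 in WT_Sox2, against 8.56, 8.23 and 7.52 in WT, and in each pair at least 1 sample lay inside the range of the other group. In MZ 1 atp5pf was not above background. With array weights 22 of 70 genes passed, 2 higher and 20 lower, beside 21.7% of all probes.

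**Figure D5:**
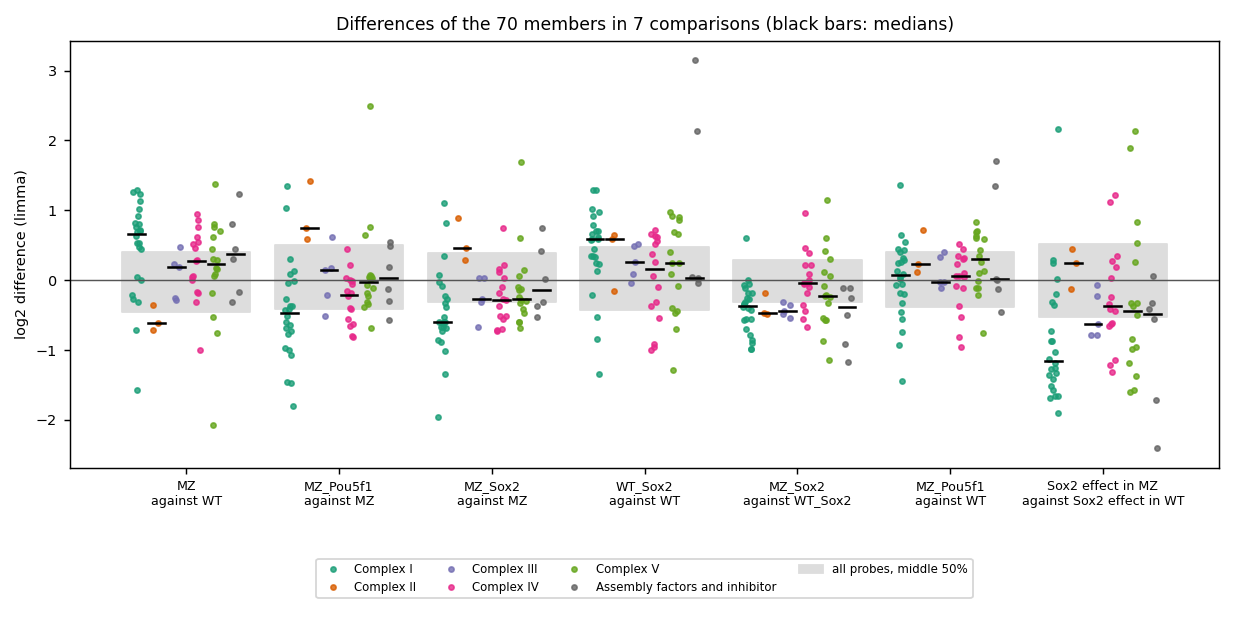
Limma's log2 difference of each of the 70 genes in the 7 comparisons, by complex, with black bars at the medians of a complex and grey boxes over the middle 50% of all probes. Complex I has its median at 0.66 in MZ against WT, at 0.59 in WT_Sox2 against WT and at -1.15 for the difference between the Sox2 effects, and no point passed the test. The comparisons share samples, so their points are not independent of each other.

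The 70 genes had 109 probes, and 25 genes had more than 1. Of the 39 probes not used, 18 were above background in all 16 samples, and 13 of those 18 went with the gene's brightest probe at a Pearson correlation over 0.5 across the 16 samples. Over all 39, the correlation was over 0.5 for 15 and below 0 for 7. These correlations describe probes that share samples, dye and array.

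Other genes of mitochondrial energy metabolism, and the genes that the embryo could use in their place, gave 0 calls in each of the 7 comparisons. Of all probes, at most 0.0977% were called in a comparison. In MZ against WT the median log2 difference was 0.17 over 13 carrier and electron-transfer genes such as cyc1, the cytochrome of complex III, 0.11 over 18 further assembly factors and 0.06 over 16 genes of the tricarboxylic acid cycle. It was 0.03 over 23 glycolysis genes, which make ATP without oxygen, and 0.15 over 6 regulators of mitochondrial biogenesis. It was 0.37 over 54 mitochondrial ribosomal protein genes, 0.67 over 61 cytosolic ribosomal protein genes and 2.29 over 39 early zygotic genes, beside 0.30 over the 70. In WT_Sox2 against WT the same medians were 0.07, 0.02, 0.31, 0.13, 0.01, 0.24, 0.15 and -0.32 in that order of lists, beside 0.34 over the 70. Ribosomal protein and early zygotic genes therefore had larger medians than the 70 in MZ against WT and lower ones in WT_Sox2 against WT. In MZ_Pou5f1 against MZ the medians were 0.32, -0.42, 0.19, -0.07, -0.14, -0.44, -0.59 and -3.27 in the same order, beside -0.18 over the 70. In MZ_Sox2 against MZ they were 0.19, -0.14, 0.15, -0.16, 0.10, -0.39, -0.24 and -1.86, beside -0.29 over the 70. The largest falls in both were thus those of the early zygotic genes. A list of core subunits had 17 measured genes. It also holds subunits around the catalytic core, such as cox5aa and cox5ba, and lacks ndufs8b and sdhda. Its genes had 8 positive differences in MZ against WT, with a median of -0.19, and 13 in WT_Sox2 against WT, with a median of 0.26. In the difference between the Sox2 effects, 8 of 16 tricarboxylic acid cycle genes and 3 of these 17 genes had an unadjusted p under 0.05. The shares beside them were 17 of 70 and 9.09% of all probes.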

How the data were processed

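The series holds 16 array samples in 5 groups, mapped by their titles, with 3 or 4 samples per group. The deposited values are intensity values on a linear scale, 1 column per dye channel. Per the submitters' processing notes the scans were read with Agilent Feature Extraction (no version stated there). The authors analysed each dye channel on its own and quantile normalised the values, per the labels and the series' design text. No source used here gives the background correction. In 14 columns the sorted values were identical, and the other 2 (MZ_Sox2 4 and MZ_Pou5f1 2) were mapped onto that distribution by rank before log2 was taken of the deposited intensity. Arrays give no read depth, so the number of samples limits the precision. The design text calls the replicates biological.

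Of 21555 features, 60 controls were left out and 21495 probes were fitted with limma (version 3.58.1, R 4.3.3) in 1 model: a mean per group, dye as covariate and array as random block (consensus correlation 0.043), because 3 arrays held 2 samples. Two-sided p-values were adjusted over all probes by Benjamini and Hochberg's method, with 0.05 as threshold, and SE is limma's moderated standard error. The fit was run on simulated data with known changes and independent noise. These had no array, dye or slide effects and no samples of unlike quality, so the run does not check the fit against such effects. Gene names come from the platform annotation, and all 70 gene identifiers matched the RefSeq table of assembly GRCz12tu. The shared arrays held MZ 1 with WT 2, MZ 2 with WT 3 and MZ 3 with WT 1, so MZ and WT samples were paired by array. The main fit took up these pairs only through the random array block. Medians within a slide or against a single sample were taken without a dye term. Replicate numbers did not follow these pairs, and correlations of same-numbered deviations ran from -0.65 to 0.53.

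The genes, lists and rule were chosen with earlier results of these data known. Named were called genes, up to 3 non-overlapping genes per direction and comparison by moderated statistic (for the difference of Sox2 effects, by the statistic alone), the brightest and dimmest gene of each complex, core subunits, isoforms, and the 5 largest and 5 smallest SDs. Alternatives covered normalization, the log offset, dye, array, slide and replicate blocks, the set of samples fitted, a filter on dim probes, trended and robust eBayes, array weights, probe choice, threshold and each sample left out. Figures were drawn with matplotlib 3.10.9.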

Additional observations from a re-analysis of the deposited data

Results flagged for a closer look

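The group with 4 samples was searched for a sample far from the other 3, in each of 51 named genes, with Dixon's 95% critical value for the gap over the range. This criterion marks about 5% of groups by chance, and it marked 2 of 51. For atp5f1c, the gamma subunit of the ATP synthase, MZ_Sox2 2 had a log2 intensity of 13.6, while the other MZ_Sox2 samples had 14.54 to 14.68. For atp5mf, subunit f, MZ_Sox2 1 had 9.929, while the others had 10.96 to 11.04.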

How the results depend on the processing

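With array weights the calls among the 70 genes went to 20 (MZ against WT), 10 (MZ_Pou5f1 against MZ), 32 (WT_Sox2 against WT), 13 (MZ_Sox2 against WT_Sox2), 12 (MZ_Pou5f1 against WT) and 22 (difference between the Sox2 effects), from 0 in each, and the cause was not tested. In that order these were 28.6, 14.3, 45.7, 18.6, 17.1 and 31.4% of the 70. Of the brightest 25% of probes, which hold 49 of the 70, the shares called were 28.5, 17.5, 28.2, 21.5, 11.7 and 25.9%. With each sample left out in turn, calls ranged from 0 to 1 in MZ against WT and from 0 to 5 in MZ_Pou5f1 against MZ, and were 0 in the other 5 comparisons. The median of MZ_Pou5f1 against MZ was -0.063 with the 2 unlike columns as deposited and -0.036 with columns scaled to a common median, and ranged from -0.27 to -0.043 with each sample left out. That of MZ_Sox2 against MZ was -0.14 with the 2 columns as deposited and -0.11 with array weights, and that of MZ_Sox2 against WT_Sox2 was -0.078 with the 2 columns as deposited. The sign of atp5mc3a turned when all its probes were averaged, to 0.093 in WT_Sox2 against WT and 0.11 in MZ_Pou5f1 against WT. Of 1066 other values of 34 named differences, 1064 kept their sign. These differences were picked in the same data for groups that do not overlap or for a large statistic. A kept sign was therefore largely fixed by the choice and is no check on them. With the replicate block 0 of the 70 genes were called in every comparison, beside at most 3 of all probes. The medians of MZ against WT and WT_Sox2 against WT were then 0.40 and 0.34. Slide as a fixed block could not be estimated for MZ_Sox2 against MZ and WT_Sox2 against WT, which share no slide. The fits without the 2 unlike columns and without MZ 1, MZ 2 and WT 3 were chosen after seeing the data. Without the 2 columns, 0 of the 70 genes were called in all 7 comparisons, beside at most 2 of all probes. Without MZ 1 and MZ 2, MZ rests on a single sample, assumed to vary like the other groups, so calls of that fit are not given. Dim probes limit what can be said of the 14 genes not always above background.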
